A study of Homo sapiens with 6 samples.

Results

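The genes described here are the expressed LINC-named genes of KMS27 myeloma cells: all gene IDs whose symbol is LINC followed by digits only, with a mean of at least 1 TPM over 6 libraries. TPM is a transcript abundance corrected for length and stated as a share of a library. The rule selected 157 gene IDs with 153 symbols from 63677 genes in the table. Of 643 LINC gene IDs, 143 were at 0 in all 6 libraries and 343 were above 0 with a mean under 1. Members were thus chosen by their mean TPM, so that they are expressed is no finding. By their group means, 140 reached 1 TPM in both groups, 16 in the control group only and 1 in the HA-TAZ group only.

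KMS27 is an established human line of malignant plasma cells. Total RNA of the line was sequenced after depletion of ribosomal RNA in 3 libraries of cells overexpressing HA-TAZ and 3 libraries of cells labelled wild type. HA is a peptide tag, and TAZ, the product of WWTR1, is a coactivator of the Hippo pathway that binds DNA through TEAD factors. The series asked which RNAs change with TAZ in myeloma cells. The control columns bear a name found in no label and were matched to the wild type samples because no other columns remained, so these libraries are called control a, b and c. Titles of wild type samples also contain HA, and whether those cells received a construct is not stated. Neither the vector nor the number of clones is stated, and nothing says that the 3 libraries of a group came from separate cultures. The p-values therefore measure the spread between libraries, which may be technical. WWTR1 was at 293, 306 and 293 TPM with HA-TAZ, and at 2.69, 2.22 and 1.69 TPM in controls, which fits the labels of the 2 groups.

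Long intergenic non-coding RNAs are transcripts made by RNA polymerase II, often spliced and polyadenylated, that carry no long open reading frame. LINC with a number is a placeholder symbol, given before a function is known and replaced when one is described or a short protein is found. Many such RNAs are kept low in the nucleus by the RNA exosome, while others are exported, host small RNAs or overlap neighbouring genes.

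The start regions of 3 members are shown as examples. LINC00515 had the largest rise among members past the test, and LINC00152 (CYTOR) was called whichever library was left out. LINC00263 (OLMALINC) fell beside the protein-coding gene SCD. This was the only tested neighbour of a changed member past the test, where 7.29% of all genes tested passed. The sequences are RefSeq's on GRCh38.p14, from 250 bases before to 50 bases after the RefSeq gene start, 5′ to 3′ on the gene's strand. LINC00515 lies at chr21:25583175-25583474 on the minus strand, CYTOR at chr2:87455177-87455476 on the plus strand and OLMALINC at chr10:100373326-100373625 on the plus strand. Capitals mark a match to the TEAD motif GGAATG or its reverse complement. The RefSeq start is 102 bases from the GENCODE 29 gene start for LINC00515, 646 for CYTOR and 63 for OLMALINC.
LINC00515: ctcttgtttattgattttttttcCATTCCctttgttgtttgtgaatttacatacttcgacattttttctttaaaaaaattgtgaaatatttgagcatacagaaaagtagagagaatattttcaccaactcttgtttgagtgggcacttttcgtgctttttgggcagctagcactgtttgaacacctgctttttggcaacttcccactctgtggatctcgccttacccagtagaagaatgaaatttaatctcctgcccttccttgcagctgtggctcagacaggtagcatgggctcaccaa
CYTOR: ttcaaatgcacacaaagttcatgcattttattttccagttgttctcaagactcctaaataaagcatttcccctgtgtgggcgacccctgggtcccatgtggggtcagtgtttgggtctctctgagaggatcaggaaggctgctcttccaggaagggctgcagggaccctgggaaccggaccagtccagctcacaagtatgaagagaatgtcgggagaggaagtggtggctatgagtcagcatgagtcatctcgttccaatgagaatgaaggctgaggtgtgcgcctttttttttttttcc
OLMALINC: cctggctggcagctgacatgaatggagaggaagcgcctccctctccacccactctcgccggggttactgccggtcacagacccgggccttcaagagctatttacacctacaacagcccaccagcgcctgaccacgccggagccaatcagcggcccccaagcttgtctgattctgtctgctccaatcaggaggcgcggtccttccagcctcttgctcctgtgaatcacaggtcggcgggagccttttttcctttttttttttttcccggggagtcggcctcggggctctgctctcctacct

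RefSeq start regions were found for 106 members, and were searched on both strands for 4 motifs. GGAATG was in 14 of them (13.2%), against 14.0% of all 35116 start regions of the same length. The E-box CACGTG was also in 14 (13.2%), against 7.26% of all. The core of the interferon-stimulated response element was in 4, against 3.57% of all, and an NF-kB motif in 2, against 1.61% of all. Of 10 members with a changed level and a start region, LINC00515 had GGAATG and LINC00493 had the E-box. The RefSeq start was 530416 bases from the GENCODE 29 gene start for LINC00871 and 142192 for LINC00478. Their windows thus lie far from that start. A match describes these letters only and is not a binding site. The member start regions had a median GC content of 54.8% and a median of 10 CpG dinucleotides, against 58.7% and 14 in all.

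Most members were scarce. The median of the mean TPM was 3.37, with a range from 1.03 to 129.8, and 50 members lay under 2, 86 between 2 and 10 and 21 at 10 or more. In the authors' deposited table the members had a median of 175 estimated counts in a typical library, from 8.86 to 19361. For the median member that is a counting error of 7.56%, so that small differences of scarce members cannot be resolved. Just inside the threshold were LINC00843 with 2 gene IDs at 1.03 TPM each and LINC00648 at 1.04 TPM, and just outside were LINC00877 at 0.999, LINC00638 at 0.963 and LINC00598 at 0.948 TPM.

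Differences between the groups were tested with limma on log2(scaled TPM + 1), where scaled TPM is TPM divided by a factor for each library. A log2 ratio below is HA-TAZ minus control on this scale, and BH stands for Benjamini-Hochberg.

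The 8 most abundant members held 50.4 ± 2.03% (SD, n = 3) of the members' summed TPM with HA-TAZ and 41.6 ± 2.46% (SD, n = 3) in control libraries, with the groups apart. Highest was LINC00338, now SNHG20, a host gene of a small nucleolar RNA, at 119, 132 and 89.5 TPM with HA-TAZ and 128, 170 and 139 in controls. The groups overlapped. LINC00152 came next and is described below with the genes that rose.

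LINC00273, listed as a 1-exon gene, ranked next in level. It was at 142, 99.97 and 152 TPM with HA-TAZ, and at 18.5, 48.4 and 87.9 TPM for control a, b and c. All HA-TAZ values were above all control values, but the controls differed among themselves by more than the highest of them differed from HA-TAZ 2. The log2 ratio of 1.86, the largest in size of any member, did not pass the test (SE 0.60, limma, BH-adjusted p = 0.107). It was 1.22 without control a and 2.40 without control c.

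Other abundant members differed little after scaling. LINC00657 is now NORAD, a cytoplasmic RNA that binds PUMILIO proteins. It was at 47.7, 54.3 and 46.0 TPM against 69.1, 65.9 and 58.3 in controls, apart as deposited, but its log2 ratio after scaling was −0.08 and did not pass. Of the stretches of 31 bases in NORAD, 56.4% also occur in other genes, so its reads could be split with copies. LINC00662 had a log2 ratio of 0.12 and LINC00998 of 0.17, neither past the threshold, and both were negative with TPM as deposited.

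**Figure D1:**
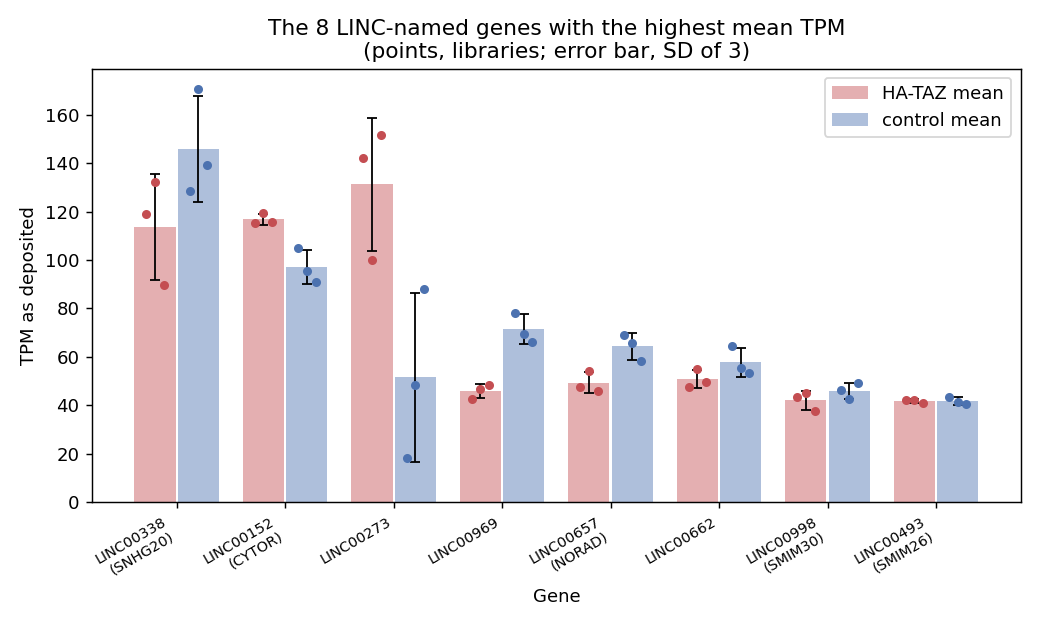
TPM as deposited (vertical axis) of the 8 LINC-named genes with the highest mean; points are libraries, bars are means and error bars are SDs of 3 libraries. LINC00273 varies from 18.5 to 87.9 among the controls, while LINC00152 stays between 115 and 119 in the HA-TAZ libraries.

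Of all 22651 genes tested, 1652 passed (7.29%) at an adjusted p under 0.05, and 1057 were higher in HA-TAZ libraries (4.67%) and 595 lower (2.63%). Of the 157 members, 14 passed (8.92%), of which 4 were higher (2.55%) and 10 gene IDs with 9 symbols were lower (6.37%). Other long non-coding genes had 22 of 3528 higher and 126 lower. With TPM as deposited, the members' split was 2 higher and 36 lower, against 1.15% higher and 13.5% lower of all genes. Scaling on protein-coding genes gave 2 higher and 11 lower, while 43.4% of the 1519 calls over all genes were higher, against 64.0% in the main scaling.

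Counted by libraries that do not overlap, 12 members were higher with HA-TAZ (7.64%) and 61 lower (38.9%) in scaled TPM. Of all genes, 20.2% were higher and 18.3% lower, and of other long non-coding genes 5.36% and 30.8%. In TPM as deposited, 6 members were higher and 95 lower, against 4.41% and 43.6% of all genes. Both pairs of counts cover the 16 members that passed the level rule by their control mean only. The rule itself favours lower values in these, and the counts were not repeated without them.

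The members' median log2 ratio was −0.18, with quartiles of −0.32 and 0.03, and 114 of 157 were negative. The 16 members that passed the level rule by their control mean only had to be lower with HA-TAZ as deposited. Over the 140 that passed by both means, the median was −0.15 and 98 were negative, with 4 higher and 10 lower. The median was −0.03 over all genes, −0.18 over other long non-coding genes and 0.06 over protein-coding genes. With TPM as deposited, the members' median was −0.37 and that of all genes −0.27. By level, the median was −0.17 for the 50 members under 2 TPM, −0.18 for the 86 between 2 and 10, and −0.07 for the 21 at 10 or more, with 0, 9 and 5 gene IDs past the test. Of all genes, 1.75% passed at 1 to 2 TPM, 4.94% at 2 to 10 and 12.4% at 10 or more. Only 2 members had a log2 ratio of at least 1 in size, LINC00273 and LINC00515.

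**Figure D2:**
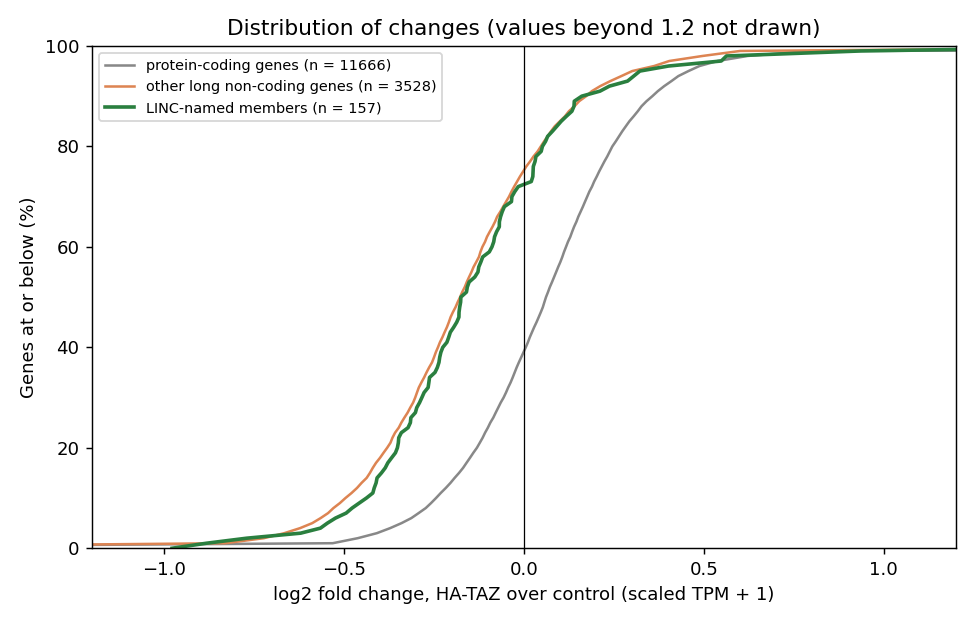
Share of genes (vertical axis, percent) at or below a given log2 ratio of HA-TAZ over control (horizontal axis) for the LINC-named members, other long non-coding genes and protein-coding genes. The curve of the members runs along that of other long non-coding genes, with medians of −0.18 each, left of protein-coding genes at 0.06.

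Several measures of library composition moved with the groups. Members took 0.118 ± 0.00419% (SD, n = 3) of all TPM with HA-TAZ and 0.139 ± 0.00361% (SD, n = 3) in control libraries, with the groups apart, while the scaled sums of 1296 ± 28.7 and 1242 ± 54.9 (SD, n = 3 each) overlapped. Transcripts typed as retained introns took 4.09 ± 0.246% with HA-TAZ and 5.28 ± 0.439% in controls (SD, n = 3 each). RN7SK, RN7SL1 and RN7SL2 together took 27.0 ± 0.797% and 24.1 ± 2.52% (SD, n = 3 each), and both pairs of groups were apart. Genes at 1 TPM or more numbered 20534 to 21395 with HA-TAZ and 23120 to 23807 in controls. Transcripts typed as lincRNA, in contrast to the members, took a larger share with HA-TAZ, 2.73 ± 0.342% against 2.20 ± 0.218% (SD, n = 3 each), with the groups apart. The part of these in the members' lower values was not tested. In bulk RNA, fewer expressing cells and less RNA per cell cannot be told apart. Of 11 gene IDs of plasma cell markers, 9 were at 1 TPM or more, and CD79A, with 2 gene IDs of the same values, was at a mean of 0.0873 TPM. Their summed TPM was 2785 to 3217 with HA-TAZ and 4270 to 4825 in controls. IGJ, the joining chain of antibodies, held most of that sum, at 2457 ± 199 and 3792 ± 254 TPM (SD, n = 3 each). The markers past the test were SLAMF7 with a log2 ratio of 0.95 and CD38 with −0.61 (limma, BH-adjusted p = 0.0128 and 0.0226), and the other 7 tested did not pass. The summed markers of T cells, monocytes, stromal and erythroid cells stayed at or under 4.89 TPM in every library.

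Among members past the test, LINC00515 had the largest rise. It was at 5.13, 5.05 and 5.80 TPM with HA-TAZ, and at 2.44, 2.61 and 1.35 TPM for control a, b and c. The groups were far apart relative to their spread, at 5.33 ± 0.412 and 2.13 ± 0.687 TPM (SD, n = 3 each). The log2 ratio was 1.27 (SE 0.17, limma, BH-adjusted p = 0.0226), and 1.04 with TPM as deposited. It has a single transcript in the table, shares no stretch of 31 bases with other genes, and in the authors' deposited table this transcript had a natural log effect of 1.16 and a q-value of 2.73e-06. MRPL39, which encodes a mitochondrial ribosomal protein and lies 2.33 kb away on the same strand in GENCODE 29, had a log2 ratio of 0.15 that did not pass (limma, BH-adjusted p = 0.192).

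LINC00152, now CYTOR (cytoskeleton regulator RNA), was at 115, 119 and 116 TPM with HA-TAZ, and at 105, 95.3 and 91.1 TPM for control a, b and c. The HA-TAZ values lay above every control. The log2 ratio was 0.57 (SE 0.04, limma, BH-adjusted p = 0.00609). With TPM as deposited it was 0.27, close to the threshold (limma, BH-adjusted p = 0.0499). Of all members, this was the only one called in each of the 6 fits that left out a library. LINC00515 was called without control c and LINC00871 likewise, and the other members past the threshold were called in 0 of the 6. CYTOR has a near copy, MIR4435-2HG, listed in the table as MIR4435-1HG. Between 29.6% and 94.2% of the stretches of 31 bases in each CYTOR transcript, and 68.1% in the most abundant, also occur there, so reads of the pair may be split. That copy was at 9.33 ± 1.03 TPM with HA-TAZ and 11.1 ± 0.998 TPM in controls (SD, n = 3 each). Its log2 ratio was 0.04 and did not pass (limma, BH-adjusted p = 0.796). Summed with it, an alternative chosen after the data were seen, the log2 ratio was 0.52 (limma, BH-adjusted p = 0.00702).

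Within CYTOR, the transcripts differed. ENST00000437561.1 was at 31.5, 30.5 and 25.7 TPM with HA-TAZ, and at 17.4, 12.5 and 10.4 TPM in controls. These groups did not overlap, and its log2 ratio of 1.37 passed (SE 0.16, limma, BH-adjusted p = 0.0386). ENST00000331944.6, the most abundant, was at 30.8, 30.6 and 33.1 against 23.7, 25.9 and 24.6 TPM, apart as well, with a log2 ratio of 0.63 that did not pass (limma, BH-adjusted p = 0.0658). In the authors' deposited table both had q-values under 0.05, at 1.99e-10 and 1.43e-04. ENST00000423846.1 was at 14.3 ± 0.796 and 14.6 ± 1.76 TPM (SD, n = 3 each). Its groups overlapped. Of the stretches of 31 bases in ENST00000437561.1, 59.3% occur in MIR4435-2HG too, so its share of the gene's reads is an estimate.

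**Figure D3:**
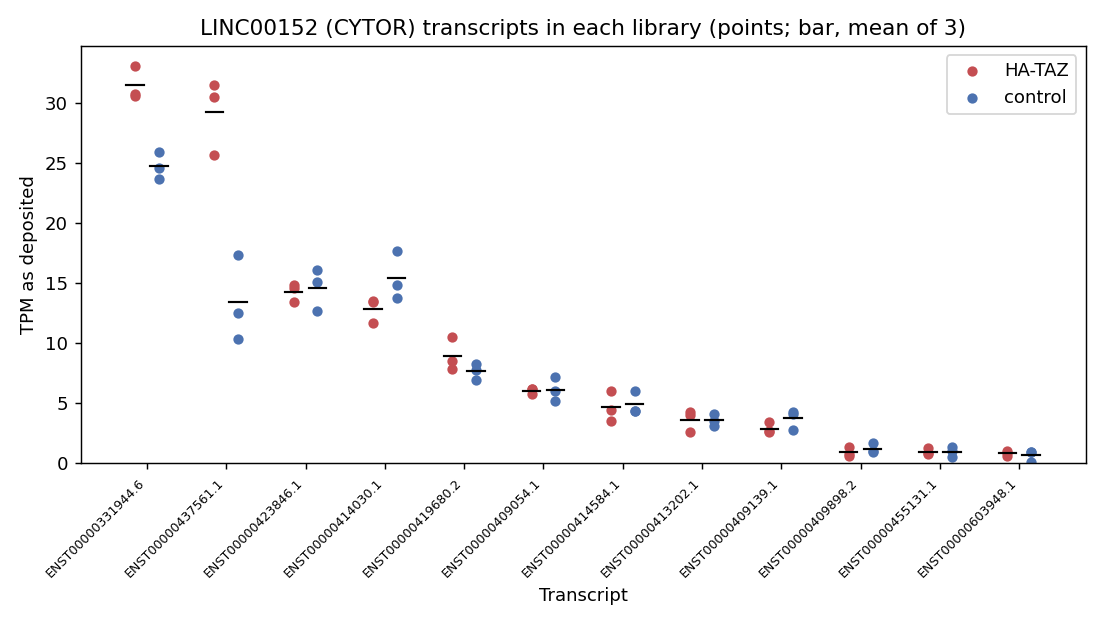
TPM as deposited (vertical axis) of the LINC00152 (CYTOR) transcripts in each library; points are libraries and bars are means of 3. The groups are apart for the 2 most abundant transcripts and overlap for ENST00000423846.1.

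The remaining rises were smaller. LINC00511 was at 10.7, 13.1 and 9.96 TPM with HA-TAZ, and at 7.17, 9.09 and 8.45 TPM in controls, without overlap, with a log2 ratio of 0.68 (SE 0.14, limma, BH-adjusted p = 0.0465). With TPM as deposited it was 0.41 and did not pass (limma, BH-adjusted p = 0.0780). The neighbour SLC39A11, a zinc transporter gene, had a log2 ratio of −0.14 and did not pass.

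LINC00493, now SMIM26, encodes a small mitochondrial protein. It was at 42.2, 42.1 and 40.9 TPM with HA-TAZ and 43.7, 41.5 and 40.7 in controls. These groups overlapped as deposited, and scaled TPM put them apart at 46.1 ± 2.57 and 37.5 ± 1.25 (SD, n = 3 each). Its log2 ratio of 0.29 (SE 0.06, limma, BH-adjusted p = 0.0438) became −0.01 with TPM as deposited, so this rise rests on the scaling. The neighbours SEC23B and DTD1 had log2 ratios of 0.10 and 0.17 that did not pass.

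**Figure D4:**
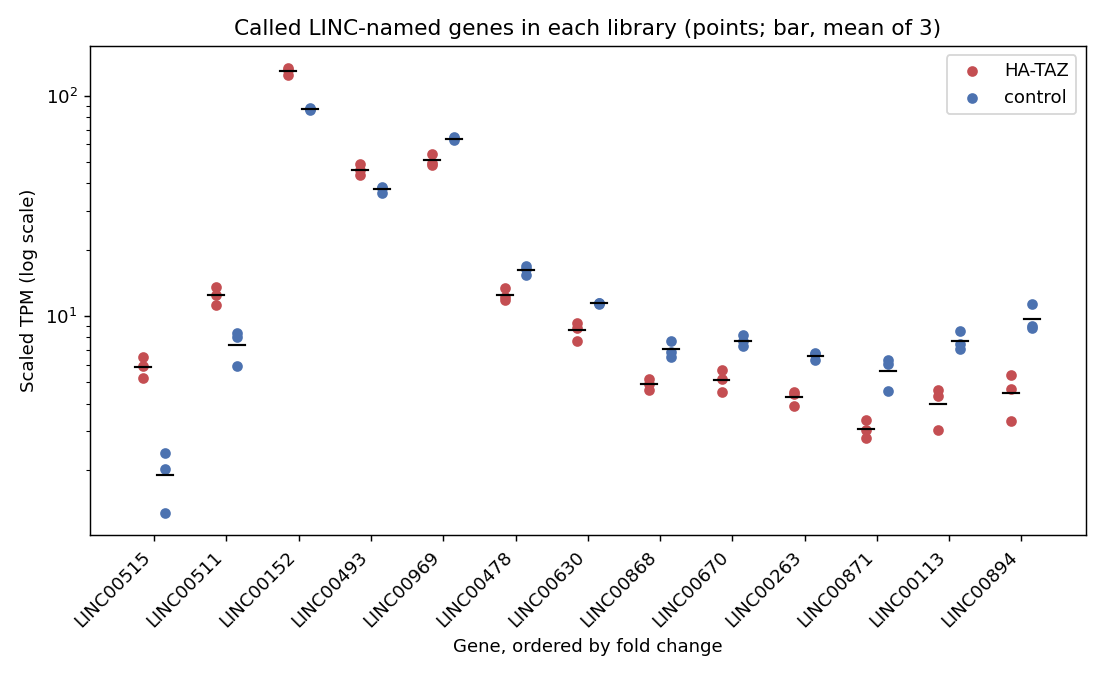
Scaled TPM (vertical axis, log scale) in each library of the LINC-named genes that passed the test, ordered by fold change; points are libraries and bars are means of 3. The groups are apart for each gene shown, with 4 genes higher and 9 lower with HA-TAZ, and LINC00515 and LINC00894 have the widest gaps.

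Among the members that fell, LINC00894, now EOLA2-DT, fell furthest. It was at 2.88, 4.52 and 4.78 TPM with HA-TAZ, and at 13.6, 9.77 and 9.28 TPM in controls. Every HA-TAZ value was under every control value, and the log2 ratio was −0.98 (SE 0.17, limma, BH-adjusted p = 0.0371). The table lists it under 2 gene IDs with the same values, which are 1 measurement. It overlaps CXorf40B on the opposite strand, which was at 12.8 ± 0.723 and 11.1 ± 0.758 TPM (SD, n = 3 each). Its log2 ratio was 0.47 and did not pass (limma, BH-adjusted p = 0.0536). Whether the authors' quantification used the strand is not stated, so reads of this pair may not be told apart.

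LINC00113 was at 2.62, 4.20 and 4.12 TPM with HA-TAZ and 10.4, 8.09 and 7.47 in controls. LINC00871 was at 2.43, 3.24 and 2.69 against 7.33, 6.89 and 4.82 TPM. In both genes each control exceeded each HA-TAZ library, and both fell, by 0.81 (SE 0.15) and 0.70 (SE 0.13) on the log2 scale (limma, BH-adjusted p = 0.0414 and 0.0416). LINC00670 was at 3.89, 5.50 and 4.62 against 9.86, 8.40 and 7.76 TPM, and LINC00868 at 4.26, 4.99 and 4.10 against 9.34, 7.49 and 6.90 TPM. These fell by 0.52 and 0.45 on the log2 scale, again without overlap (limma, BH-adjusted p = 0.0411 and 0.0439). MFSD11, a neighbour of LINC00868 at 68.7 kb, had a log2 ratio of 0.13 that did not pass.

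LINC00263, now OLMALINC, is an RNA named for oligodendrocyte maturation. It was at 3.386, 4.275 and 3.9997 TPM with HA-TAZ, and at 8.09, 7.39 and 6.69 TPM for control a, b and c. The groups were well apart, and the log2 ratio was −0.53 (SE 0.08, limma, BH-adjusted p = 0.0288). Of its stretches of 31 bases, 26.6% occur in other genes. SCD, which encodes stearoyl-CoA desaturase, the enzyme that makes monounsaturated fatty acids, lies 8.68 kb away on the same strand in GENCODE 29. SCD was at 117 ± 8.15 TPM with HA-TAZ and 188 ± 11.4 TPM in controls (SD, n = 3 each), and fell too, with a log2 ratio of −0.38 (limma, BH-adjusted p = 0.0185). On the other side, 8.998 kb away, WNT8B was at 0.844 ± 0.0357 and 1.67 ± 0.190 TPM (SD, n = 3 each). Its log2 ratio was −0.37 and did not pass (limma, BH-adjusted p = 0.101). Neighbours were the protein-coding genes that overlapped a changed member or lay nearest on either side within 100 kb. Of those tested, SCD was the only one past the threshold, where 7.29% of all genes tested passed. The others tested were MRPL39, SLC39A11, SEC23B, DTD1, MUC20, USP25, BHLHB9, MFSD11, WNT8B and CXorf40B. A single gene among these cannot be set apart from that share.

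The other members that fell were more abundant. LINC00969 lies in the region of MUC20, a cell surface mucin gene, and was at 42.8, 46.8 and 48.4 TPM against 78.2, 69.7 and 66.3 in controls. It fell by 0.33 on the log2 scale (SE 0.06, limma, BH-adjusted p = 0.0345), and MUC20, which it overlaps on the same strand, had a log2 ratio of −0.46 that did not pass (limma, BH-adjusted p = 0.0566). Reads of this pair may be shared, and 31.4% of the stretches of 31 bases in LINC00969 occur in other genes. LINC00478, now MIR99AHG, the host gene of the miR-99a cluster, was at 11.6, 11.7 and 10.5 against 20.3, 16.7 and 17.2 TPM, without overlap. It fell by 0.35 on the log2 scale (limma, BH-adjusted p = 0.0444), and its neighbour USP25 had a log2 ratio of −0.09 that did not pass. LINC00630 was at 6.68, 8.998 and 7.86 against 13.7, 12.5 and 12.1 TPM and fell by 0.37 on the log2 scale (limma, BH-adjusted p = 0.0494). BHLHB9, beside LINC00630, had a log2 ratio of −0.18 that did not pass.

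**Figure D5:**
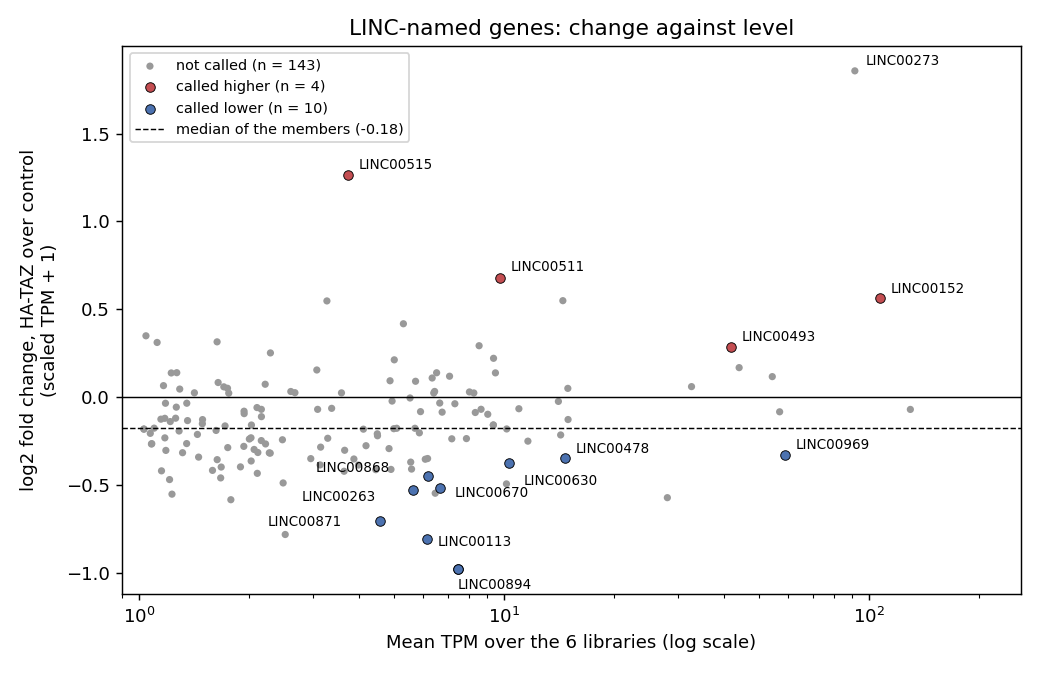
Log2 fold change of HA-TAZ over control (vertical axis) against mean TPM over the 6 libraries (horizontal axis, log scale) for the 157 LINC-named gene IDs. Colours mark those past the test, and the dashed line is the median of all 157, −0.18. Most points lie below 0, no gene under 2 TPM passes, and LINC00273 is highest without passing.

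Among members that did not pass, the next after LINC00273 in size of change were LINC00446, at 0.885, 1.86 and 1.23 TPM against 5.42, 2.25 and 3.43, and LINC00674 (ENSG00000262206), at 0.880, 0.841 and 1.12 against 4.89, 1.67 and 1.30. Control a was the highest library in both. Their log2 ratios were −0.78 and −0.58 (limma, BH-adjusted p = 0.106 and 0.272). Without control a, that of LINC00674 was −0.22. LINC00926, a gene linked to B cells, was at 0.838 ± 0.0976 TPM with HA-TAZ and 1.53 ± 0.134 TPM in controls (SD, n = 3 each) and did not pass (limma, BH-adjusted p = 0.119).

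Names and locations divided the members further. The name table changed the symbol of 33 members, of which 3 were higher (9.09%) and 4 gene IDs lower (12.1%), with a median log2 ratio of −0.09. It kept that of 108, with 1 higher (0.926%), 5 lower (4.63%) and a median of −0.19. Of all genes, 4.67% were higher and 2.63% lower. These sets were not matched for level, and the share of members past the test was 0% at 1 to 2 TPM, 10.5% at 2 to 10 and 23.8% at 10 or more. GENCODE 29 types 9 members as protein-coding, with 1 higher, 0 lower and a median of 0.03. These include SMIM26, SMIM30 (LINC00998), which encodes a small membrane protein, and C2orf92 (LINC01125), whose log2 ratio of −0.13 did not pass. Of 143 members with a GENCODE 29 location, 113 were intergenic, 12 overlapped a protein-coding gene on the same strand, 13 on the opposite strand and 5 started within 1 kb of a divergent protein-coding gene. The median log2 ratios of these groups were −0.18, −0.18, −0.10 and −0.30.

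At the level of transcripts, 255 of the members' 755 were tested. The CYTOR transcript ENST00000437561.1 was the only one past the threshold, against 0.564% of all transcripts tested (limma). The authors' deposited table gave statistics for 434 member transcripts, of which 19 were under a q-value of 0.05, 5 of them positive and 14 negative, 4.38% in all. Of all its transcripts 5.68% had such a q-value, 4.08% positive and 1.6% negative. The member transcripts belong to 17 symbols and include 8 of the 14 gene IDs that passed here.

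Long non-coding RNAs that have functional names were taken from a list of 42 symbols, of which 23 gene IDs were tested. DANCR rose, with a log2 ratio of 0.31 (limma, BH-adjusted p = 0.0297), CCAT1 fell by 0.49 on the log2 scale (limma, BH-adjusted p = 0.0485), and the median was −0.01. These calls are 4.35% higher and 4.35% lower, against 4.67% and 2.63% of all genes. As deposited, DANCR was at 155 ± 6.48 TPM with HA-TAZ and 154 ± 4.87 TPM in controls (SD, n = 3 each). Those groups overlapped, so its rise rests on the scaling. GAS5 and MIR22HG had log2 ratios of 0.30 and 0.51 that did not pass. With TPM as deposited, 0 of this list were higher and 7 lower. The nuclear RNA exosome and its cofactors, which degrade many long non-coding RNAs, are 26 genes with 27 tested gene IDs. Of these 5 gene IDs rose and 0 fell, with a median log2 ratio of 0.08, but 0 were higher and 2 lower with TPM as deposited. The rises were EXOSC4, an exosome core subunit with 2 gene IDs of the same values, at 0.41, EXOSC1, a cap subunit, at 0.28, XRN2, a nuclear exonuclease, at 0.28, and PABPN1, a nuclear poly(A)-binding protein, at 0.20 on the log2 scale. With TPM as deposited the ratio of means was 0.993 for EXOSC1, 0.988 for XRN2 and 0.933 for PABPN1, so the direction of these 3 rests on the scaling, and it was 1.10 for EXOSC4. All 27 gene IDs were above 10 TPM, where 10.1% of protein-coding genes were called higher and their median log2 ratio was 0.09.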

How the data were processed

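RNA-seq of 6 libraries was used. Per the submitters' processing notes the tools include kallisto 0.46.0 and sleuth 0.30.0 and the build is GRCh37; their roles, the annotation release and the strand setting are not given in the sources used here. The authors deposited TPM for 215170 transcripts, and a table with, per the file headers, p-values, q-values, natural log effects, natural log mean estimated counts and model variance terms per transcript. These variance scores in the authors' deposited table were not used. TPM carries no depth, so the depth of each library is unknown and errors come from the spread between 3 libraries. Columns of values per library left unused numbered 0.

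TPM was summed per gene ID and divided by a median-of-ratios factor from 21512 genes above 0 in all libraries (0.866, 0.967 and 0.890 for HA-TAZ, 1.21, 1.09 and 1.06 for controls). Genes averaging at least 1 TPM were tested with limma 3.58.1 (R 4.3.3), using a trend of variance with level. The two-sided test on log2(scaled TPM + 1) covered 22651 genes, adjusted over all of them by Benjamini-Hochberg (BH), and the threshold was 0.05. The pseudocount of 1 makes changes of scarce genes look smaller. An exact permutation test cannot go below p = 0.1 here. The fit was also run on simulated data with independent noise for each gene and no shift of library composition. Such shifts were thus not covered. Gene types and distances are from GENCODE 29 (GRCh38), and shared stretches of 31 bases were counted in its transcripts. Python 3.11.15 was used otherwise.

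Genes named are members past the threshold and their tested protein-coding neighbours, overlapping or nearest on either side within 100 kb. Also named are the 8 most abundant members, up to 8 renamed or protein-coding ones and the 3 largest changes that did not pass. So are the 3 on each side of the level threshold, and up to 4 per list. LINC00926 is a lineage marker. Members and lists were chosen with earlier results of these data known.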

Additional observations from a re-analysis of the deposited data

How the results depend on the processing

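No paired analysis was possible because the control columns carry a name found in no label and cannot be tied to numbered samples. The 14 LINC gene IDs past the threshold became 38 with TPM as deposited, of which 12 were shared, 4 without the trend, 3 without a filter on level and 1 to 3 when a library was left out. They were 1 without each of HA-TAZ 1, 2 and 3, control a and control b, and 3 without control c. Calls over all genes dropped as well, to between 117 and 435, and the cause was not tested. Without the trend, adjusted p-values of the named members that fell, other than LINC00263, were 0.0510 to 0.0635 (limma, Benjamini-Hochberg). Both other pseudocounts gave 14, scaling on protein-coding genes 13, summing per symbol 13 and a minimum of 5 TPM 15. The members' median was −0.37 as deposited and −0.19 to −0.14 with a library left out. The 1 transcript became 0 as deposited, without the trend or without the filter, 7 at a minimum of 5 TPM, and 0 to 1 with a library left out. The 19 transcripts of the authors' deposited table became 11 at a q-value under 0.01. Named long non-coding RNAs past the threshold, 2, became 7 as deposited, 1 without the filter, 4 per symbol and 0 to 0 with a library left out. The 5 exosome gene IDs became 2 as deposited, 3 scaled on protein-coding genes, 0 without the trend or the filter, and 0 to 2 with a library left out. As deposited, LINC00493 turned to −0.0064, LINC00662 to −0.18 and LINC00998 to −0.13 (log2). LINC00338 ranged from −0.21 to 0.082 with a library left out, above 0 without HA-TAZ 3 (0.082) and control b (0.067). Scarce members are limited by counting error.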

Other observations

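Below the level threshold, 11 LINC genes reached a mean of 1 TPM in 1 group only, a set chosen after the values were seen and given without a test. The group that reached 1 TPM is the higher one by this choice, so the direction is no finding. In 8 of them this was the control group. LINC00857 was at 0.589, 0.641 and 0.554 TPM with HA-TAZ and at 1.21, 0.909 and 1.02 TPM in controls, and LINC00485 at 0.637, 0.703 and 0.625 against 1.45, 1.01 and 1.17 TPM. Both had groups that did not overlap, which the choice favours. Of all genes tested, 43.6% were lower without overlap as deposited. In the other 3 it was the HA-TAZ group. Among them, LINC00598 was at 0.809, 2.09 and 1.03 TPM against 0.917, 0.131 and 0.706 TPM, where HA-TAZ 2 was highest. Its groups overlapped as deposited and were apart in scaled TPM. LINC00116, now MTLN, which encodes a mitochondrial micropeptide, was also picked after its values were seen. It was at 15.3, 17.7 and 14.5 TPM with HA-TAZ and 9.44, 14.5 and 15.6 in controls, overlapping as deposited but apart in scaled TPM. Its log2 fold change of 0.55 did not pass (limma, BH-adjusted p = 0.161).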
